A study of Mus musculus with 2 samples.

Results

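Mir107, Mir103-2 and Mir103-1 are the mouse genes of the family made up of miR-103 and miR-107, and each lies inside an intron of a pantothenate kinase gene (Pank). They were taken by gene identifier from the deposited miRNA counts, in which all 3 had a row among 1973 miRNA gene rows, 1894 of them with a GENCODE name. The libraries hold small RNA under 30 bases from the embryonic facial prominence, the tissue of the forming face and jaws, of strain B6NCrl mice at embryonic day 14.5. No genetic change or treatment is given in the labels, and the samples are 2 biological replicates of this single group. The labels call each sample the cranioface of a single pup, give the same donor entry for both and describe the sex as pooled, so the number of embryos behind a replicate is unclear. The replicates were collected on different days, and day and replicate cannot be told apart.

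Pantothenate kinases carry out the committing step of coenzyme A synthesis. The miRNAs in their introns are cut from a hairpin into a 5p and a 3p strand, and the seed near the 5′ end of a mature strand guides it to target mRNAs. miR-103 and miR-107 are known for lowering Caveolin-1 and thereby insulin sensitivity in mouse fat and liver, and for targeting Dicer, the enzyme that makes miRNAs. They belong to the wider group of miR-15, miR-16 and their relatives, whose members share the bases AGCAGC at or next to their 5′ end and target overlapping sets of cell cycle and metabolic mRNAs.

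The hairpins are shown first because their sequences bear on which reads can be assigned to which gene. They are given 5′ to 3′ from RefSeq on GRCm38.p6, with the annotated 5p and 3p strands in capitals. All 3 genes were found in that table by symbol.
Mir107: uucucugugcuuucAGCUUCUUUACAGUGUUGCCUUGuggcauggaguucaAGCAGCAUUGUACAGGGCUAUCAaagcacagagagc
Mir103-2: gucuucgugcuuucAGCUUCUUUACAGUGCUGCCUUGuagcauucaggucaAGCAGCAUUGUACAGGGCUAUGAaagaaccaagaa
Mir103-1: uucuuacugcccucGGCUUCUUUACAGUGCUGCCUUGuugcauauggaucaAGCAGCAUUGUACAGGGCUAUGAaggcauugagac

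Mir107 (ENSMUSG00000065594.1) spans 34820687 to 34820773 of chromosome 19 on the minus strand, within Pank1. Mir103-2 (ENSMUSG00000065563.1) spans 131288052 to 131288137 of chromosome 2 on the plus strand, within Pank2. Mir103-1 (ENSMUSG00000065553.1) spans 35782396 to 35782481 of chromosome 11 on the plus strand, within Pank3. Each miRNA is on the strand of its host gene and overlaps none of its exons, in mm10 coordinates and GENCODE M21 annotation.

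The 3 genes occupy the same place in their hosts. In the principal transcript of each Pank gene, all with 7 exons, the miRNA lies in intron 5, between an upstream exon of 124 bases and a downstream exon of 126 bases. It is closer to the upstream exon in each, at 326 bases for Mir107, 454 for Mir103-2 and 688 for Mir103-1. The introns themselves differ in length, with 7282 bases in Pank1, 5801 in Pank2 and 1740 in Pank3. Some other annotated transcripts of Pank1 and Pank2 number this intron differently. In Pank2-205 another downstream exon shortens it to 984 bases, and in Pank2-203 it is an intron of 19135 bases.

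**Figure D1:**
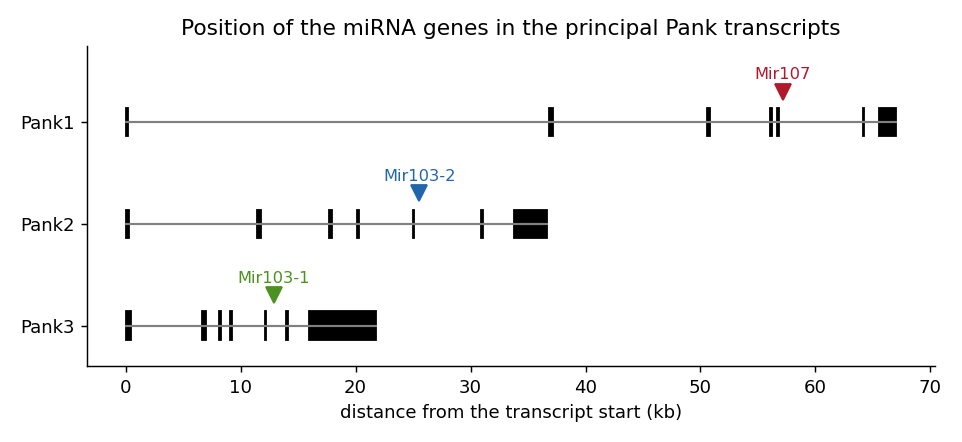
Exons (black boxes) and introns (grey lines) of the principal transcripts of Pank1, Pank2 and Pank3, drawn from the transcript start in kb, with a triangle at each miRNA gene. Exons under 150 bases are drawn 150 bases wide, and each triangle falls in intron 5 of 7 exons, closer to its upstream exon.

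The mature 3p strands are the same in both Mir103 copies and differ from that of Mir107 at a single base. They follow with the seed, bases 2 to 8, in capitals.
mmu-miR-107-3p: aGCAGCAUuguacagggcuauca
mmu-miR-103-3p: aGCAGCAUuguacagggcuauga

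The seed is shared by both 3p strands, and in the RefSeq table of mouse miRNAs no mature strand of any gene besides these 3 carries it. The only substitution between the 3p strands is C22G, counted from 1 at the 5′ end with the base of miR-107-3p first. It lies at the next to last of 23 bases.

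The 5p strands differ at positions 1 and 16, shown here in capitals because these bases separate the copies.
miR-107-5p: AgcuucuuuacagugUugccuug
miR-103-2-5p: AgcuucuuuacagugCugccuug
miR-103-1-5p: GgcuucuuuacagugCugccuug

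Relative to miR-107-5p, the 5p strand of Mir103-2 has the substitution U16C, and that of Mir103-1 has A1G and U16C. The 5p strands of Mir103-2 and Mir103-1 differ by A1G. Over the whole hairpin Mir107 was 83.9% identical to Mir103-2 and 80.5% identical to Mir103-1, and the 2 Mir103 copies were 80.2% identical to each other. The longest run shared by the Mir103 copies was 27 bases, and Mir107 shared a run of 24 bases with each of them.

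These differences set how long a read must be before a single hairpin holds it. A read that starts at the first base of miR-107-3p has to reach 22 bases, inside the annotated strand of 23. A read that starts at the first base of miR-103-3p has to reach 25 bases, 2 past the annotated end, so the annotated miR-103-3p strand is found in both copies. On the 5p side 16 bases are enough for Mir107 and Mir103-2 and 10 for Mir103-1, but without the first base the Mir103 copies need 24. No other of the 141767 transcripts of GENCODE M21 holds any of these mature strands on either strand. The search covered hairpins and spliced transcripts, not the whole genome. It used exact matches, and how the alignment of the reads treated mismatches and read ends is not known.

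**Figure D2:**
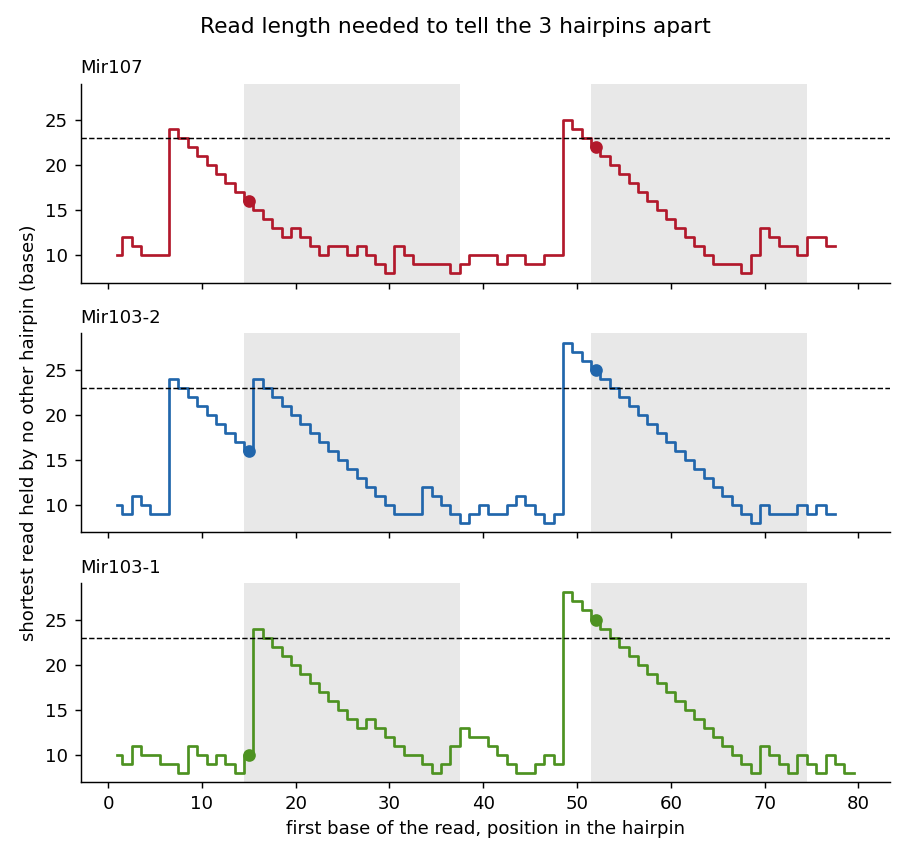
Shortest read, in bases, that is found in no other RefSeq mouse hairpin on either strand, against the position in the hairpin at which the read starts. Grey bands mark the annotated 5p (left) and 3p (right) strands, dots their first base and the dashed line 23 bases, and at the 3p dot Mir107 sits at 22 while both Mir103 copies sit at 25.

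The counts follow the presumed layout of the files, in which only reads with 1 genome position are assigned to a gene. Reads placed at several positions made up 28.5% of the reads of replicate 2 and 29.8% of those of replicate 1, and how many of them are miR-103-3p reads cannot be read from the files. The values below are therefore uniquely placed reads per gene, not the amounts of mature miR-103 and miR-107. The libraries held 13380839 reads in replicate 2, with 6602050 of them on the strand of a miRNA gene, and 5617037 in replicate 1, with 2719153 of them so assigned. Levels are given as CPM, the counts scaled to a common total of gene-strand miRNA counts, and a count of 0 would have allowed up to 3 counts, or 0.454 CPM in replicate 2 and 1.10 CPM in replicate 1. Of 12 markers of facial and other cell types all were detected, with cartilage Mir140 at 39368 and 40807 CPM in replicates 2 and 1, epidermal Mir203 at 35599 and 21094 CPM and the heart muscle miRNA Mir208a at 5.00 and 4.05 CPM.

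Mir107 was the highest of the 3 genes in both libraries. It had 5389 counts in replicate 2, or 816 CPM (95% Wilson interval 795 to 838), and 3416 counts in replicate 1, or 1256 CPM (1215 to 1299). Its mean was 1036 ± 311 CPM (SD, n = 2), which placed it at rank 102 of the 1973 rows, at rank 108 in replicate 2 and rank 97 in replicate 1. The replicates lie apart by more than the counting intervals, which cover counting error only.

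Mir103-2 was an intermediate gene with 294 counts in replicate 2, or 44.5 CPM (39.7 to 49.9), and 213 counts in replicate 1, or 78.3 CPM (68.5 to 89.6). Its mean was 61.4 ± 23.9 CPM (SD, n = 2), at rank 222. Mir103-1 had 36 counts in replicate 2, or 5.45 CPM (3.94 to 7.55), and 23 counts in replicate 1, or 8.46 CPM (5.64 to 12.7), with a mean of 6.96 ± 2.13 CPM (SD, n = 2) at rank 311. Its intervals overlap between the replicates, and it still stands above the limit that a count of 0 allows in each library. None of the 3 genes had a read on the opposite strand in either library.

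**Figure D3:**
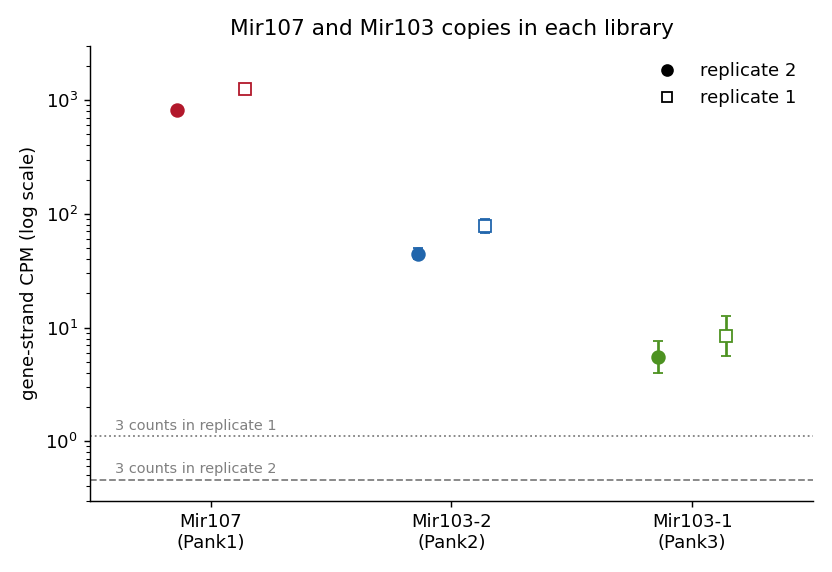
Gene-strand CPM (log scale) of Mir107, Mir103-2 and Mir103-1, with the host gene in brackets, in replicate 2 (filled circles) and replicate 1 (open squares), and 95% Wilson intervals as bars. The order Mir107, Mir103-2, Mir103-1 is the same in both libraries, and replicate 2 is the lower one for each gene.

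The proportions among the 3 genes had overlapping intervals in the 2 libraries, although the summed level did not. Together they held 866 CPM (844 to 889) in replicate 2 and 1343 CPM (1300 to 1387) in replicate 1, a mean of 1105 ± 337 CPM (SD, n = 2), or 0.0866% and 0.134% of the miRNA counts. These are shares of uniquely placed reads, which can leave out whole miR-103-3p strands but not whole miR-107-3p strands. Mir107 made up 94.2% of the sum (93.6 to 94.8) in replicate 2 and 93.5% (92.7 to 94.3) in replicate 1. Mir103-2 made up 5.14% (4.60 to 5.74) in replicate 2 and 5.83% (5.12 to 6.64) in replicate 1, and Mir103-1 made up 0.629% (0.455 to 0.870) and 0.630% (0.420 to 0.943).

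Within a library the uniquely placed reads of the 3 genes were separated by wide steps, larger than the change between replicates. Whole miR-107-3p strands can be assigned to Mir107, while whole miR-103-3p strands are held by both Mir103 copies. These steps are therefore not ratios of mature miR-107 to miR-103. Mir107 had on average 17.2 ± 1.62 times the counts of Mir103-2, a mean log2 ratio of 4.10 ± 0.14 (SD, n = 2). It had 150 and 149 times the counts of Mir103-1 in replicates 2 and 1. Mir103-2 had 8.17 and 9.26 times the counts of Mir103-1, a mean log2 ratio of 3.12 ± 0.13 (SD, n = 2). Neither proportion passed Fisher's exact test between the libraries, two-sided, with Benjamini-Hochberg adjustment over the 2 proportions compared. For Mir107 against both Mir103 copies the log2 odds ratio, replicate 2 over replicate 1, was 0.17 (95% interval -0.07 to 0.42, exact p = 0.182, adjusted p = 0.364). For Mir103-2 against Mir103-1 it was -0.18 (-0.98 to 0.62, exact p = 0.678), an interval that leaves room for a nearly 2-fold shift in favour of Mir103-1.

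Mir107 and Mir103-2 were lower in replicate 2 than in replicate 1, and Mir103-1 had a similar ratio that did not pass the test. The log2 ratio, replicate 2 over replicate 1, was -0.50 for Mir107 with a counting SE of 0.03 (exact binomial test, adjusted p = 2.51e-53 by the Benjamini-Hochberg method). It was -0.69 for Mir103-2 with a counting SE of 0.13 (exact binomial test, adjusted p = 5.85e-07), and -0.52 for Mir103-1 with a counting SE of 0.38 (exact binomial test, adjusted p = 0.301). The value of Mir103-1 rests on 36 counts in replicate 2 and 23 in replicate 1. This test compares the reads of 2 libraries and not conditions, with library sizes scaled by TMM, a method that assumes most genes are unchanged.

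Passing that test was common. Of the 372 genes tested, 194 (52.2%) passed, 102 higher (27.4%) and 92 lower (24.7%) in replicate 2, against 2 of the 3 family genes lower. When libraries were scaled by total counts 197 genes (53%) passed, of which 64 were higher (17.2%) and 133 lower (35.8%), the median log2 ratio of all tested genes was -0.14 in place of -0.02, and the family values were -0.62 for Mir107, -0.82 for Mir103-2 and -0.64 for Mir103-1. For Mir107 and Mir103-2 the size of the shift was above that of a typical gene, whose median absolute log2 ratio was 0.25. The value of Mir103-1 was also larger, but with a counting SE of 0.38. Counted from the lowest log2 ratio, Mir107 stood at rank 40, Mir103-1 at rank 36 and Mir103-2 at rank 21 of 372. Many genes of low count have scattered ratios, so Mir107 was also ranked among genes of higher level. Among the 202 genes at 100 CPM or more it stood at rank 10 from the lowest. Among the 49 genes between 500 and 2000 CPM, whose median log2 ratio was -0.07, it stood at rank 3. Of these 49 genes 22 passed the test as lower in replicate 2. The biological coefficient of variation between the replicates over all tested genes was 20.9%. The exact binomial test does not include this variation, so its p-values cover counting error only.

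**Figure D4:**
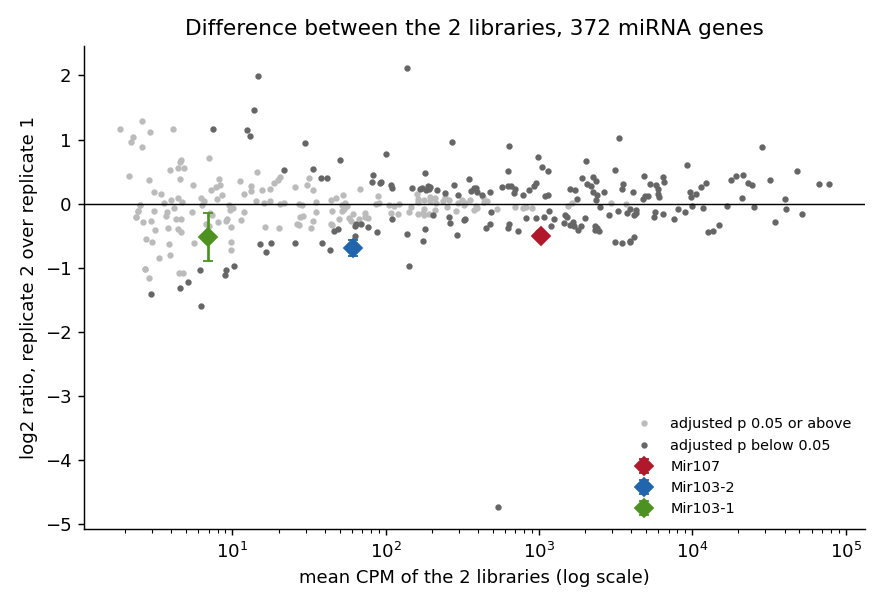
Log2 ratio of replicate 2 over replicate 1 against the mean CPM of the 2 libraries (log scale) for the 372 tested miRNA genes, dark where the exact binomial test passed at an adjusted p below 0.05. Diamonds with bars of 1 counting SE mark the 3 family genes, which all lie below 0, at -0.50 for Mir107, -0.69 for Mir103-2 and -0.52 for Mir103-1.

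Other measures moved between the same libraries. Replicate 2 had 2.43 times the assigned counts of replicate 1. The 12 cell type markers summed to 168474 CPM in replicate 2 and 145436 CPM in replicate 1. Of these 7 passed the test as higher in replicate 2 and 4 as lower, beside 27.4% and 24.7% of all tested genes. Lower were mesenchymal Mir214 (-0.42) and Mir199b (-0.50), neuronal Mir137 (-0.38) and liver Mir122 (-1.03, at 37 and 34 counts). Higher were Mir203 (0.88), Mir429 (0.26), Mir126a (0.50), Mir206 (0.32), Mir451a (0.51), Mir223 (0.51) and Mir140 (0.07). With total counts 6 markers were higher and 5 lower, beside 17.2% and 35.8%. The markers had a median mean level of 6249 CPM, and genes with many reads pass this counting test at small ratios, such as Mir140 at 0.07. No marker was at 0. The part of cell makeup and depth in the lower family values was not tested. Fewer cells that make a miRNA and less of it per cell cannot be told apart in whole tissue.

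The genes whose level in the 2 libraries was nearest to that of Mir107 were Mir181b-2, Mir199b and Mir540, by distance of log2 CPM plus 1 over the 2 libraries. Mir181b-2, 1 of 2 genes of miR-181b, had 798 CPM in replicate 2 and 1182 CPM in replicate 1, at a distance of 0.0935. Mir199b, a mesenchymal marker of the list above, lay at 0.154. Nearest to Mir103-2 were Mir20b of the Mir106a cluster, with 49.8 CPM in replicate 2 and 77.2 CPM in replicate 1, and then Mir29c and Mir302a. Nearest to Mir103-1 were Mir3066, Mir3064 and Mir511, each with 43 counts or fewer in a library. With 2 libraries such likeness covers a level and a single difference.

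The related miRNAs of the miR-15 group summed to a higher level, most of it from Mir322. Their 5′ ends are shown with the shared AGCAGC in capitals, which begins at base 1 of miR-107 and miR-103 and at base 2 of the others.
mmu-miR-107-3p: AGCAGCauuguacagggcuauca
mmu-miR-103-3p: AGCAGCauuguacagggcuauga
mmu-miR-15a-5p: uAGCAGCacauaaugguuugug
mmu-miR-16-5p: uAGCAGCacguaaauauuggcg
mmu-miR-322-5p: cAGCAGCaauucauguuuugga
mmu-miR-503-5p: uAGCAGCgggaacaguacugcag

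The offset of 1 base puts other bases in the seed. Of 11 listed group names besides the family 9 had a row, while Mir497 and Mir497a had none. The sum therefore leaves out miR-497a-5p, a strand with AGCAGC listed under the symbol Mir497. Mir497b had a row but was not among the genes with AGCAGC within the first 9 bases of a mature strand. The 9 rows summed to 40832 CPM in replicate 2 and 50720 CPM in replicate 1. Mir107 and the Mir103 copies together had 866 and 1343 CPM. The X-linked Mir322 was highest at 34808 ± 7081 CPM (SD, n = 2), followed by Mir15a at 4124 ± 101 CPM and Mir16-1 at 2342 ± 265 CPM, the paired miRNAs of a locus known for limiting the cell cycle. Below Mir107 lay Mir15b at 897 ± 85.4 CPM, Mir16-2 at 688 ± 12.6 CPM, Mir497b with 0 counts in replicate 2 and 1 in replicate 1, and Mir195b with 0 in each. Mir107 stood next to Mir195a, at 1051 ± 229 CPM, in the mean only. In replicate 2 Mir107 had 816 CPM and Mir195a 1213 CPM, and in replicate 1 they had 1256 and 890 CPM. Ligation bias differs between miRNA sequences, and reads of copies with the same mature sequence can be lost in both sets, so these levels are not molar amounts.

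The group held genes of either direction, and its difference from the family was not tested. Of its 7 tested genes 2 passed the test as lower in replicate 2 and 4 as higher, beside 24.7% lower and 27.4% higher over all tested genes, with a median log2 ratio of 0.16, against -0.52 over the 3 family genes and -0.02 over all tested genes. Lower were Mir322 (-0.29) and Mir503 (-0.35), which lie in 1 cluster on chromosome X, and higher were Mir195a (0.57), Mir16-1 (0.36), Mir15a (0.18) and Mir16-2 (0.16). With total counts 3 were lower and 3 higher, beside 35.8% and 17.2% over all tested genes, with Mir15b turning from no call to lower and Mir16-2 losing its call.

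Many miRNA genes lie in host introns as these do. Of the 1894 named genes, 661 lay in an intron of a protein-coding gene on the same strand, and 184 of these had a mean of at least 1 CPM, with a median of 21.1 CPM. Among all 661 Mir107 stood at rank 39, Mir103-2 at rank 76 and Mir103-1 at rank 112. Of the 143 tested intronic genes 30 were lower and 34 higher in replicate 2, beside 24.7% and 27.4% of all tested genes, with a median log2 ratio of -0.07. Of a list of 20 miRNAs known from host genes 19 had a row and 16 met this definition of an intron. Its highest genes were Mir335, Mir126a and the cartilage gene Mir140 at means of 51764, 47919 and 40087 CPM. Mir140 did not meet the definition, and Mir126a met it within Gm20532 but not within its listed host Egfl7. In that list 3 genes passed as lower and 6 as higher, beside 24.7% and 27.4% of all tested genes. With total counts 12 passed as lower and 1 as higher, beside 35.8% and 17.2%, and the median log2 ratio was -0.23 in place of -0.11. Host mRNA is not measured in these libraries, so Pank levels were not compared.

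Among miRNAs with 2 gene copies, the gap between the Mir103 copies was wide but not extreme. There were 15 pairs in which exactly 2 genes share a mature sequence and both had a mean of at least 10 counts. The ratio of the copy with the higher mean CPM to the other, averaged over the libraries, had a median of 3.62. It ranged from 1.05 for Mir128-1 over Mir128-2 to 35.3 for Mir181b-2 over Mir181b-1. The Mir128 pair changed order, with 0.909 in replicate 2 and 1.18 in replicate 1. Mir103-2 over Mir103-1 averaged 8.71, below Mir181b, Mir92-1 over Mir92-2 (28.9) and Mir181a-1 over Mir181a-2 (14.2). Since the shared strand is not assigned to either copy where it has 2 positions, such a ratio describes the reads that tell copies apart and not the output of the loci.

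**Figure D5:**
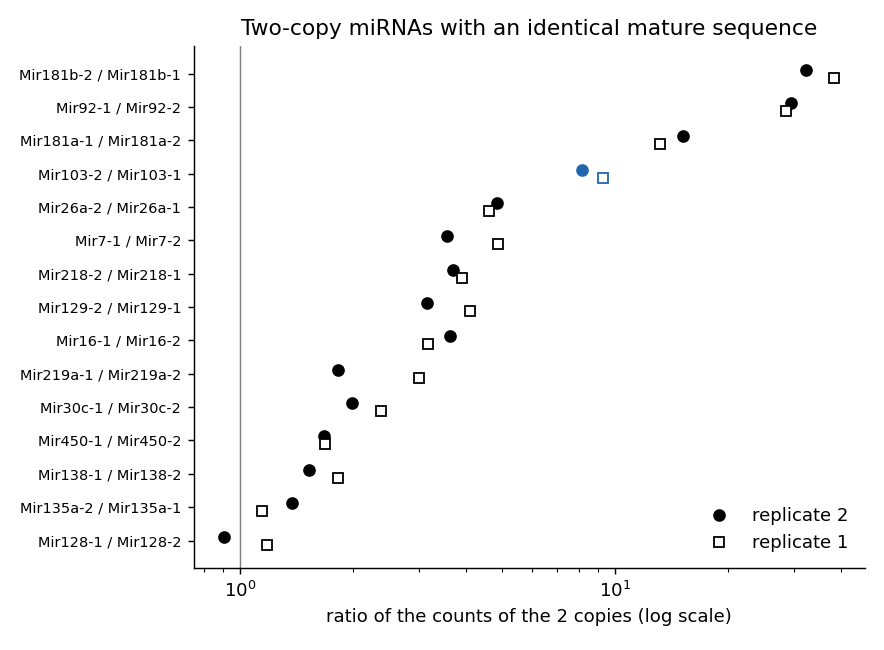
Ratio of the gene copy with the higher mean CPM to the other (log scale) for 15 pairs of miRNA genes that share an identical mature sequence. Filled circles are replicate 2 and open squares replicate 1, and pairs are ordered by the mean of the libraries. Mir103-2 over Mir103-1 (blue) is exceeded by the Mir181b, Mir92 and Mir181a pairs, at 8.17 and 9.26.

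Over the 869 rows matched to a RefSeq hairpin, 83 genes had a mature strand identical to that of another gene. Of these 18 (21.7%) reached a mean of 100 CPM and 5 (6.02%) reached 1000 CPM, against 157 (19.97%) and 84 (10.7%) of the 786 other genes. The highest of the 83 was Mir16-1 at 2342 CPM, and the highest of the others was Mirlet7i at 78025 CPM. The medians were 4.41 CPM for genes with an identical copy and 0.487 CPM for the rest. Among the 54 genes with an identical copy and at least 1 count, Mir103-2 stood at rank 20 and Mir103-1 at rank 39. Mir107, whose mature strands no other gene holds in full, was above 1000 CPM in the mean but under it in replicate 2.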

How the data were processed

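Each deposited file holds the raw counts of 1 library over miRNA genes. The authors used mm10 and GENCODE M4, per the metadata deposited with them, while the aligner is not given in the sources used here. The 3 count columns were read as both strands, gene strand and opposite strand, from the layout of STAR gene counts, and the 4 rows of unassigned reads did not enter library sizes. Members, gene lists and tests were chosen with earlier results of these data known.

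Genes were named by identifier in GENCODE M21, and hairpins matched RefSeq (GRCm38.p6) by symbol. CPM used the gene-strand total. Genes averaging 10 counts or more were compared between libraries by a two-sided exact binomial test with TMM sizes from edgeR 4.0.16, with Benjamini-Hochberg adjustment over all tested genes at 0.05 and a prior of 0.5 counts in log2 ratios. The step was tried on simulated counts with counting error only, a setting without the further variation seen between these replicates. Intervals are 95% Wilson, except those of the log2 odds ratios, which are 95% Wald intervals from the counts. All intervals cover counting error only, and the SE of a ratio likewise. Hairpins were aligned globally with Biopython. DESeq2 1.42.0 size factors were an alternative. Named genes are the family, the 3 genes nearest to each of its members, and the 3 highest genes of the group and host lists. Others were named after their values were seen.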

Additional observations from a re-analysis of the deposited data

Results flagged for a closer look

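Reads placed at several positions are a summary row of the files that no comparison used. They made up 28.5% of the reads of replicate 2 and 29.8% of those of replicate 1. The mature miR-103-3p strand is held by both Mir103-2 and Mir103-1, so its reads can be among them. Their number was not tested, since the files give no sequence for these reads.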

How the results depend on the processing

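No paired analysis was possible because there is 1 group. The log2 ratios of Mir107, Mir103-2 and Mir103-1 kept their direction and their side of the threshold with total counts, DESeq2 size factors, a prior of 5 counts and the unstranded column, from -0.62 to -0.44, from -0.82 to -0.63 and from -0.64 to -0.46. Scaled to all reads in place of miRNA counts, the levels were lower by construction, at 505 CPM for Mir107, 29.9 CPM for Mir103-2 and 3.39 CPM for Mir103-1. Leaving out a replicate gave 816 to 1256 CPM, 44.5 to 78.3 CPM and 5.45 to 8.46 CPM, and shares of 93.5 to 94.2%, 5.14 to 5.83% and 0.629 to 0.630%. The number of called genes ranged from 182 to 204. The median level of genes with an identical mature copy was 6.98 CPM with a shared stretch of 20 bases as the definition and 32.4 CPM among genes with a count. For genes without a copy it was 2.94 CPM among those with a count, and 0.368 to 0.454 CPM with a replicate left out. Counts of 36 and 23 limit Mir103-1: its counting SE of 0.38 on the log2 scale cannot resolve a difference of the size seen in Mir107.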
